A study of Mus musculus with 18 samples.

Results

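The genes for mitochondrial ribosomal proteins were described here in mouse hearts that carried 1 of 3 recombinant adeno-associated viral vectors. The members were all rows of the count table whose symbol begins with Mrpl or Mrps and a digit, which gave 76 of 23457 genes. The family was chosen from these data, because Mrpl18 and Mrpl34 passed the threshold between PLCβ1a and blank hearts. Values of that comparison are therefore given below as description only. Of the 76 members, 75 passed the filter on low counts and were among the 12281 genes tested, and Mrpl23 did not pass it.

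The 18 hearts came from male C57BL/6 mice that were 17 weeks of age, 6 for each vector, and each heart was a biological replicate. The vectors were rAAV6-PLCb1b, which encodes the PLCβ1b splice variant of phospholipase C β1, rAAV6-PLCb1a, which encodes the PLCβ1a variant of the same gene, and rAAV6-blank, which has a promoter and gives no protein. Both proteins carried a FLAG tag. All mice, blank controls included, received a vector by tail vein at 8 weeks of age, and hearts were taken 9 weeks later. No group was without vector, so a change shared by all vector-treated hearts cannot be seen. The labels name both ventricles as the tissue, and the study's methods name the left ventricle. In whole tissue of this kind, fewer cells of a type and less RNA per cell cannot be told apart.

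Mitochondria keep their own ribosome, which translates the few messenger RNAs of the mitochondrial genome. Those messages encode core subunits of the respiratory chain and of ATP synthase, and heart muscle depends heavily on both. The ribosome's RNAs come from mitochondrial DNA, whereas all of its proteins are encoded in the nucleus, made in the cytosol and imported. Some of the proteins have relatives in bacterial ribosomes, and others are found only in mitochondria.

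Of the members, 49 encode proteins of the large subunit and 26 proteins of the small subunit. The large-subunit genes were divided into 30 with bacterial relatives and 19 specific to mitochondria, and the small-subunit genes into 16 and 10. Mrps18a and Mrps18b, though relatives of bacterial S18, were counted with the mitochondria-specific genes of the large and the small subunit. Mrps36 fits its name poorly, since its product belongs to the oxoglutarate dehydrogenase complex, and it was kept as a member outside the subunits. The genes lay on 17 chromosomes.

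The labels and the tissue were checked first. Plcb1, from which both variants derive, had 71 to 140 counts in blank hearts, 275 to 570 in PLCβ1a hearts and 463 to 1598 in PLCβ1b hearts, with no overlap between blank and either other group. All 6 cardiomyocyte markers were detected, and their summed level was 17411 to 19208 CPM (counts scaled to library size) in blank, 17461 to 18832 in PLCβ1a and 17190 to 18618 in PLCβ1b hearts. The 3 atrial markers (Sln, Myl7 and Myl4) summed to 14.5 to 19.6 CPM in blank, 7.71 to 30.7 in PLCβ1a and 8.54 to 17.5 in PLCβ1b hearts. All 3 had estimates below 0 in PLCβ1b against blank, without a call, at a median log2 fold change of -0.38. Sln did not overlap between these groups, at 1.48 to 1.76 CPM in blank and 0.652 to 1.28 in PLCβ1b hearts. Such a lack of overlap was seen in 0.48% of all genes. Endothelial, fibroblast and leukocyte markers had overlapping sums in the 3 groups, and of the erythroid markers Hba-a1 and Hbb-b1 were at 0 in the count table and Alas2 had 5.35 to 10.6 CPM in blank, 9.13 to 15.6 in PLCβ1a and 6.20 to 13.3 in PLCβ1b hearts. The part of cell composition in the results below was not tested. Nuclear genes gave 3908354 to 7591558 counts per heart, of which the 76 members took 12483 to 24041.

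The starts of the genes were searched for motifs, which the choice did not use. RefSeq promoter windows (GRCm38.p6, 250 bases before to 50 after a start) were found for 67 of 76 members. The ETS motif CCGGAAG, searched on both strands as were the others, was in a window of 24 members, or 35.8%, against 19.8% of the tested genes with a window and 9.93% of all genes. The NRF1 motif CGCATGCG was in 7, or 10.4%, against 4.49% and 2.07%. AAGATGG, a core that YY1 binds, was in 13, or 19.4%, against 8.37% and 7.28%. CCAAT was in 40.3% against 42.6% and 41.1%, and TATAAA in 7.46% against 8.99% and 15.7%. A match describes letters in these windows and not binding.

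The bases before the starts of Mrpl18 and Mrpl34 are shown because these are the genes by which the family was chosen. They are printed 5′ to 3′ on the gene's strand with ETS motifs in capitals. For Mrpl18, which has 4 exons at chr17:12911355-12916091, they are chr17:12916092-12916341 on the minus strand. For Mrpl34, with 2 exons at chr8:71464926-71465753, they are chr8:71464676-71464925 on the plus strand. Each stretch holds 1 ETS motif, near the upstream end of the stretch in Mrpl18 and near the start in Mrpl34, and neither holds TATAAA.
Mrpl18: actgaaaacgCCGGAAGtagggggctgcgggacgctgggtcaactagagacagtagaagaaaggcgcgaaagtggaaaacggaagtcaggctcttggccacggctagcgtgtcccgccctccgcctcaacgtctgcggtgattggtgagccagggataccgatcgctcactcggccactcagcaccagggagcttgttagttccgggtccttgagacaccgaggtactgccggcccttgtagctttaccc
Mrpl34: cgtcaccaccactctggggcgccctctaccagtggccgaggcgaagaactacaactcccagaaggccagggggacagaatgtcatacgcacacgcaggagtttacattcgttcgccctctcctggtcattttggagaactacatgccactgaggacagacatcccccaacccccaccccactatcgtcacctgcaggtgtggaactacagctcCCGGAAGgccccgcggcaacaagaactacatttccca

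Many members start back to back with another gene. Within 1000 bases, 26 of 75 tested members (34.7%) had the start of a gene on the opposite strand, against 14.1% of 12256 tested nuclear genes. Partners included Tcp1 (374 bases from Mrpl18), a chaperonin subunit, Ndufb5 (308 bases from Mrpl47), a complex I subunit, and Peo1 (116 bases from Mrpl43), the mitochondrial helicase. Mrpl46 and Mrps11, which encode proteins of different subunits, start 42 bases apart, and Mrps12 starts 187 bases from Sars2, the mitochondrial seryl-tRNA synthetase. The stretches between these 2 pairs of starts show how little sequence they share. They are chr7:78783090-78783130 and chr7:28741782-28741967, on the plus strand of GRCm38.p6, and the ETS motif is in capitals on the strand printed.
Mrps11 and Mrpl46: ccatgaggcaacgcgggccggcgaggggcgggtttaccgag
Mrps12 and Sars2: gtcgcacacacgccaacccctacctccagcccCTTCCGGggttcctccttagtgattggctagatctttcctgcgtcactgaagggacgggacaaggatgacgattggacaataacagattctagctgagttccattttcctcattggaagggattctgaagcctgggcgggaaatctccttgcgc

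Levels of different genes were compared per length, as FPKM, fragments scaled to exon length and library size. The highest and the lowest mean over the 18 hearts differed by 51.1-fold, from Mrpl42 at 112 to Mrpl17 at 2.19 FPKM. In all, 22 members exceeded 20 FPKM and 6 were under 5 FPKM. The median tested member stood at 13.1 FPKM, against 2.88 for all tested genes with a value.

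Mrpl42, a mitochondria-specific protein of the large subunit, was the most abundant. Its FPKM had a lowest, median and highest value of 100.4, 113.2 and 119.6 in blank hearts, 105.1, 111.6 and 115.6 in PLCβ1a hearts and 106.8, 112.8 and 118.5 in PLCβ1b hearts. The 3 groups overlapped almost completely. Next came Mrps21, the counterpart of bacterial S21, with group means of 87.0 ± 4.44 (SD, n = 6), 87.1 ± 5.76 and 88.2 ± 5.09 FPKM in the order blank, PLCβ1a and PLCβ1b. Mrpl30, Mrpl33 and Mrpl18, all of bacterial type, followed at 62.2 ± 3.95, 48.0 ± 2.23 and 47.3 ± 2.61 FPKM in blank hearts. Mrpl33 and Mrpl18 did not differ beyond their spread there.

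At the other end stood Mrpl17 and Mrps25, with 2.21 ± 0.110 and 2.40 ± 0.226 FPKM in blank hearts, whose ranges overlapped. Mrpl19, Mrps10 and Mrpl35 followed at 2.82 ± 0.163, 4.17 ± 0.540 and 4.31 ± 0.276 FPKM. These low values go with long transcripts in some cases, since the exons of Mrpl17 sum to 6712 bases, those of Mrps25 to 6065 and those of Mrpl19 to 5000. The counts of these long genes were ordinary, and Mrpl17 had 159 to 325 counts per heart. Mrps10 was low in counts too, at 2.26 to 4.33 CPM.

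**Figure D1:**
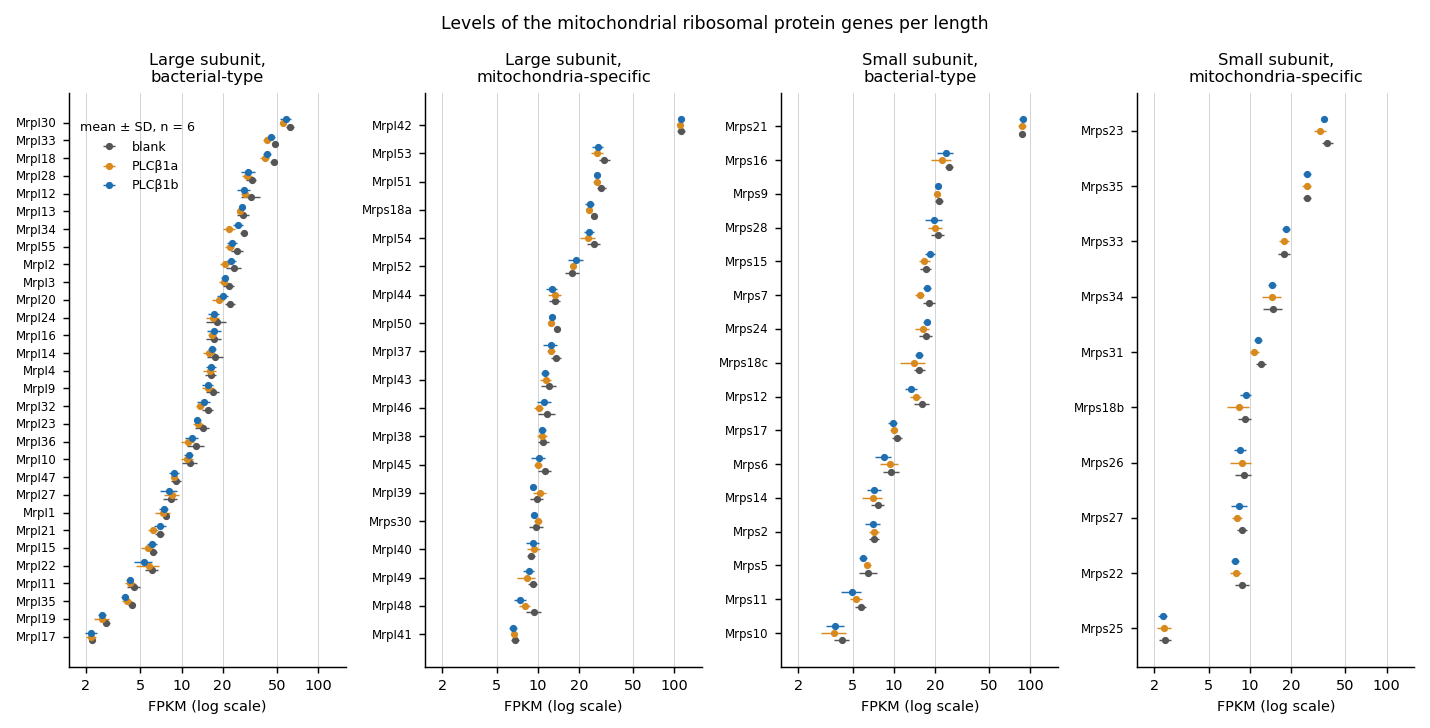
Mean FPKM with SD (n = 6 hearts per group) of 75 members on a log axis, in 4 panels by subunit and origin, with blank, PLCβ1a and PLCβ1b hearts in grey, orange and blue. Mrpl42 at 112 and Mrps21 at 87.4 FPKM stand apart at the top, and Mrpl17 at 2.19 FPKM at the bottom.

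The median level was 16.3 FPKM for bacterial-type and 11.7 for mitochondria-specific large-subunit genes, and 14.8 and 10.2 FPKM for the small-subunit classes in the same order. In both subunits the bacterial-type median was the higher, and this difference in level was not tested. The order of levels over all 76 members barely differed between groups, with rank correlations of 0.996, 0.998 and 0.999 between the blank, PLCβ1a and PLCβ1b means and the mean of all hearts, of which each group is part. This is a correlation across genes, which share libraries. The members also varied less than most genes. Their median SD within groups was 0.112 on the log2 CPM scale, against 0.157 for all tested genes, at a median of 217.5 against 126 counts per heart.

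For a few members counts and FPKM diverged. Relative to other genes, the count per exonic base of Mrpl23 was 0.0343 of what its FPKM would give, with 1 to 6 counts in a heart but 12.01 to 15.8 FPKM. The same ratio was 0.109 for Mrps36, 0.152 for Mrps33 and 0.431 for Mrps21, whereas it was 0.986 for Mrpl42. The cause was not tested. Mrps36 also had the widest spread of the tested members, 0.425 on the log2 CPM scale, at 10 to 29 counts per heart. Exons of Mrps6 and Mrpl53 overlap Slc5a3 and Ccdc142 on the same strand by 145 and 14 bases, so their reads can be shared. A further 7 members overlap exons of a gene on the opposite strand, and counting was stated to use strand.

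The comparison of PLCβ1b with blank hearts asked which genes differed when this variant was expressed. No member was called, that is none of 75 reached a false discovery rate (FDR) below 0.1 in edgeR's quasi-likelihood test with Benjamini-Hochberg adjustment, against 0.0977% of all genes. DESeq2 and limma likewise called 0 members. At an unadjusted p below 0.05, 7 members were lower and 0 higher, against 3.47% and 3.94% of all tested genes. Estimates were below 0 for 62 of 75 members, or 82.7%, where 50.4% of all genes were below 0. Among the shortest 2455 genes tested the share was 58.2%, against 79.7% of the 59 members there. The median log2 fold change of the members was -0.06, a difference of -4.17%, and that of all genes was 0.00 to 2 decimals (-0.000892). The members' 95% intervals included 0 for 68 genes. These hearts were compared with the same 6 blank hearts in which the family was first seen to be high relative to PLCβ1a hearts.

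Mrpl48, a mitochondria-specific protein of the large subunit, had the lowest p. Its level was 5.51, 6.49 and 6.81 CPM (lowest, median and highest) in blank hearts, 4.78, 5.59 and 6.18 in PLCβ1a hearts, and 4.40, 5.24 and 5.40 in PLCβ1b hearts. The highest PLCβ1b heart was lower than the lowest blank heart, while PLCβ1a hearts overlapped both. It was the only member with no overlap between PLCβ1b and blank, a pattern seen in 0.48% of all genes. The log2 fold change was -0.32 (SE 0.0863, 95% interval -0.50 to -0.15), and the edgeR FDR was 0.196, which misses the threshold. The gene lies at chr7:100549117-100607996 (mm10, minus strand) and shares exonic bases with Rab6a on the other strand.

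Mrps12, the counterpart of bacterial S12 at the decoding centre of the small subunit, followed a like order. Blank hearts had 7.03, 7.83 and 8.55 CPM, PLCβ1a hearts 6.48, 7.03 and 7.85, and PLCβ1b hearts 6.15, 6.54 and 7.27. The ranges of blank and PLCβ1b hearts overlapped, with 4 PLCβ1b hearts below the lowest blank heart. The log2 fold change of PLCβ1b against blank was -0.23 (SE 0.0771), with an edgeR FDR of 0.415.

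The remaining members with the lowest p also missed the threshold. Mrpl18 was at 29.6, 31.6 and 34.3 CPM in PLCβ1b hearts against 33.8, 35.0 and 36.4 in blank hearts, and 5 PLCβ1b hearts were below every blank heart. Its log2 fold change was -0.15 (SE 0.0473), with an edgeR FDR of 0.379. Mrpl53, another mitochondria-specific protein of the large subunit, had a log2 fold change of -0.16 (SE 0.0688, edgeR FDR 0.599), and 4 PLCβ1b hearts were below the blank range. Mrpl12, the stalk protein that also binds mitochondrial RNA polymerase, ranged from 18.9 to 26.4 CPM in blank and from 18.9 to 24.3 CPM in PLCβ1b hearts. The log2 fold change of Mrpl12 was -0.15 (SE 0.0681, edgeR FDR 0.641) with wide overlap. At the upper end, the highest estimates were 0.12 for both Mrps18b (SE 0.0991) and Mrps15 (SE 0.0697), with intervals that included 0.

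**Figure D2:**
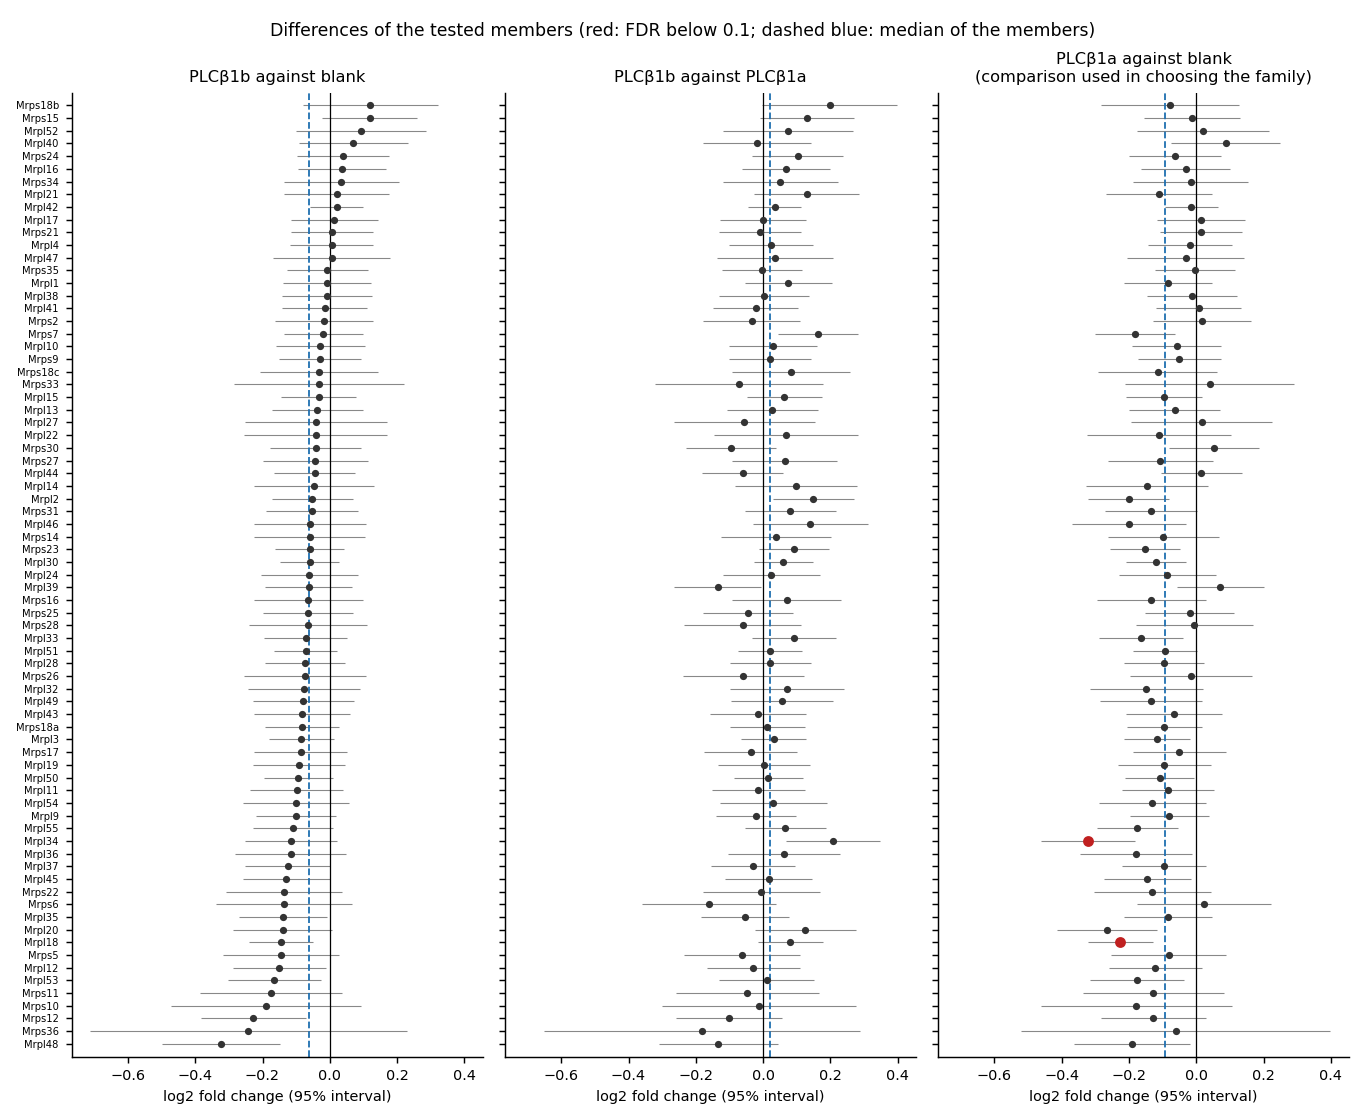
log2 fold change (x axis) with 95% interval of the 75 tested members, in 3 panels by comparison and in 1 order set by PLCβ1b against blank. The dashed median lies at -0.06 in PLCβ1b against blank, at 0.02 in PLCβ1b against PLCβ1a and at -0.09 in PLCβ1a against blank, where Mrpl34 and Mrpl18 (red) have an FDR below 0.1.

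Between PLCβ1a and blank hearts, the comparison from which the family was chosen, Mrpl18 and Mrpl34 were lower. These are values that led to the choice and support nothing further. Mrpl18 encodes a bacterial-type protein of the large subunit's central protuberance. It had 26.9, 29.98 and 31.6 CPM (lowest, median and highest) in PLCβ1a hearts against 33.8, 35.0 and 36.4 in blank hearts. Mrpl34, the counterpart of bacterial L34, had 8.58, 9.53 and 10.4 CPM against 11.6, 12.04 and 12.3. In neither gene did the groups overlap. The log2 fold changes were -0.23 (SE 0.0475) for Mrpl18 and -0.32 (SE 0.0688) for Mrpl34, that is differences of -14.5% and -20.0%, each with an edgeR FDR of 0.0542. In FPKM the blank and PLCβ1a means were 47.3 ± 2.61 and 40.5 ± 2.96 for Mrpl18, and 28.5 ± 1.72 and 22.4 ± 2.19 for Mrpl34.

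These 2 of 75 members stood inside the threshold, which 0.138% of all genes passed, and both were lower. The member just outside it was Mrpl20, the counterpart of bacterial L20, with a log2 fold change of -0.27 (SE 0.0739) and an edgeR FDR of 0.240. Mrpl2, whose bacterial relative sits near the peptidyl transferase centre, and Mrps7, of the small subunit's head, came next at -0.20 (SE 0.0595) and -0.18 (SE 0.0588). In all, 16 members were lower and 0 higher at an unadjusted p below 0.05, with 4.16% of all genes lower and 4.42% higher. The groups did not overlap for 4 members (Mrpl18, Mrpl34, Mrpl30 and Mrpl33), as for 0.594% of all genes. Estimates were below 0 for 63 of 75 members, or 84.0%, with 50.6% for all genes, and the median was -0.09, a difference of -6.21%. Of the shortest 2455 genes tested 63.8% were below 0, and of the 59 members there 86.4%.

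PLCβ1b and PLCβ1a hearts were compared because the study took the PLCβ1a variant as a control for expression of a PLC protein. No member was called by edgeR, DESeq2 or limma, and edgeR called 0 of 12281 genes, or 0%. At an unadjusted p below 0.05, 3 members were higher in PLCβ1b hearts and 1 was lower, against 2.24% and 2.18% of all genes. The groups overlapped for all 75 members and did not for 0.179% of all genes. Of the 75 estimates 28 were below 0, or 37.3%, against 49.5% of all genes, and the median was 0.02. Of the shortest 2455 genes tested 42.8% were below 0, and of the 59 members there 37.3%. The family was chosen on genes that were low in these same PLCβ1a hearts. The counts and the direction of these estimates therefore support nothing further. The intervals of 71 members included 0, and a member's interval reached, at the median, 9.99% upward from its estimate.

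Mrpl34 had the lowest p of this comparison. It had 9.55, 10.99 and 12.997 CPM in PLCβ1b hearts against 8.58, 9.53 and 10.4 CPM in PLCβ1a hearts. The ranges overlapped, and the log2 fold change was 0.21 (SE 0.0690, 95% interval 0.07 to 0.35) with an edgeR FDR of 0.971. This comparison uses the same PLCβ1a hearts in which Mrpl34 had been picked for its low level. Against blank hearts Mrpl34 had a log2 fold change of -0.12 (SE 0.0677, edgeR FDR 0.744) in PLCβ1b hearts, with 5 of them below the blank range, and -0.0743 without the heart of PLCβ1b mouse 8.

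Mrps7 was at 17.1, 17.9 and 19.3 CPM in PLCβ1b hearts and at 14.02, 16.3 and 17.3 CPM in PLCβ1a hearts. It overlapped only at the edges of both ranges, with a log2 fold change of 0.16 (SE 0.0585) and an edgeR FDR of 1.0. Mrpl2 had a log2 fold change of 0.15 (SE 0.0594), also with an FDR of 1.0. Mrpl39, a mitochondria-specific protein related to a tRNA synthetase, was the member lower in PLCβ1b hearts, with 13.3, 14.5 and 16.2 CPM against 13.2, 16.5 and 17.3 CPM in PLCβ1a hearts. Its log2 fold change was -0.14 (SE 0.0634, edgeR FDR 1.0). Mrps18b, 1 of 3 mitochondrial relatives of bacterial S18, was estimated higher by 0.20 (SE 0.0993, edgeR FDR 1.0) on that scale.

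**Figure D3:**
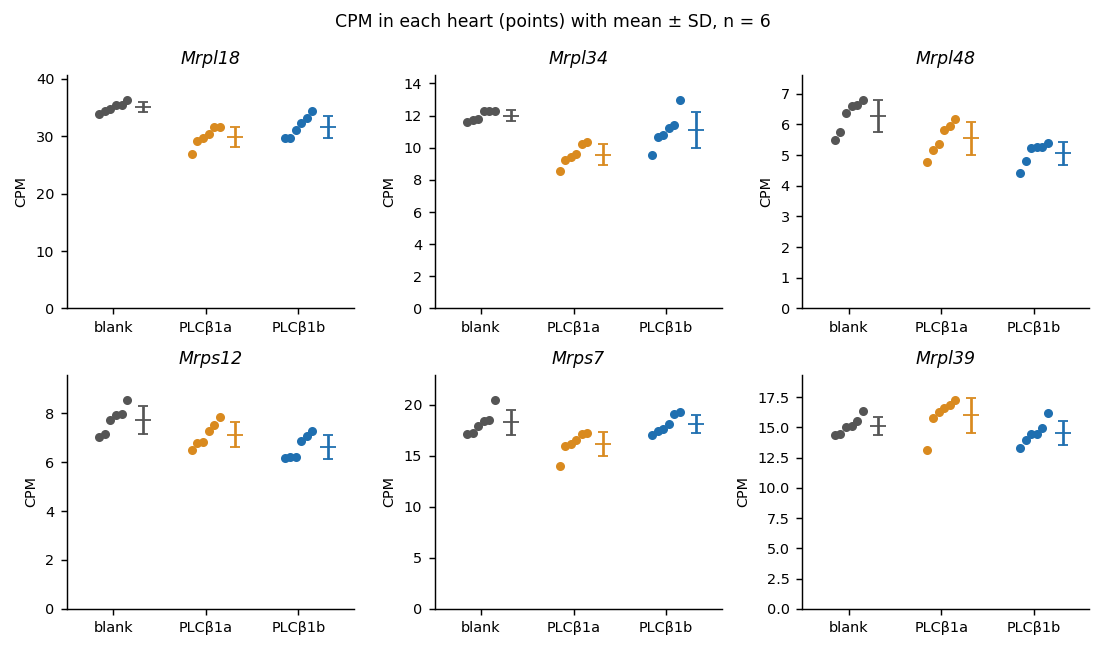
CPM in each heart (points) with mean and SD (n = 6) for Mrpl18, Mrpl34, Mrpl48, Mrps12, Mrps7 and Mrpl39, with each y axis starting at 0. Blank and PLCβ1a hearts do not overlap for Mrpl18 and Mrpl34, blank and PLCβ1b hearts do not overlap for Mrpl48, and the other differences are within overlapping ranges.

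The whole family was then followed in each heart, as the median over the 75 members of the deviation from the 18-heart mean in log2 CPM. It was 0.0261 at the lowest, 0.0399 at the median and 0.0904 at the highest in blank hearts. PLCβ1a hearts had -0.0764, -0.0266 and 0.00196, and PLCβ1b hearts -0.0337, -0.0137 and 0.0335. All 6 PLCβ1a hearts and 5 PLCβ1b hearts were below the lowest blank heart. The family was chosen from the PLCβ1a and blank hearts, so their separation supports nothing further. PLCβ1b hearts were set against the same blank hearts. The median over all tested genes stayed between 0.000752 and 0.00788 in every heart, where scaling and centring keep it near 0. In the shortest length quintile of all genes, blank hearts had -0.0102 to 0.0562, PLCβ1a hearts -0.0353 to 0.0380 and PLCβ1b hearts -0.0120 to 0.0385.

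As a share of nuclear counts, the members took 0.331 to 0.353% in blank hearts, 0.315 to 0.335% in PLCβ1a hearts and 0.326 to 0.337% in PLCβ1b hearts. The large-subunit median had group means of 0.0579, -0.0415 and -0.00701 in the order blank, PLCβ1a and PLCβ1b, and the small-subunit median 0.0352, -0.0173 and -0.00635. Both subunit medians had their highest group mean in blank hearts. In FPKM, 61 of 76 members had their highest group mean in blank hearts, and the lowest was in PLCβ1a hearts for 47 and in PLCβ1b hearts for 25 members. The same count over all genes was not made. On the FPKM scale all genes were also shifted towards blank. With limma on log2(FPKM + 0.1), the median log2 fold change of all tested genes with a value was -0.0186 for PLCβ1b and -0.0206 for PLCβ1a against blank. Because the family was chosen on genes that were lower in PLCβ1a than in blank hearts, the order of the members' group means supports nothing further.

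**Figure D4:**
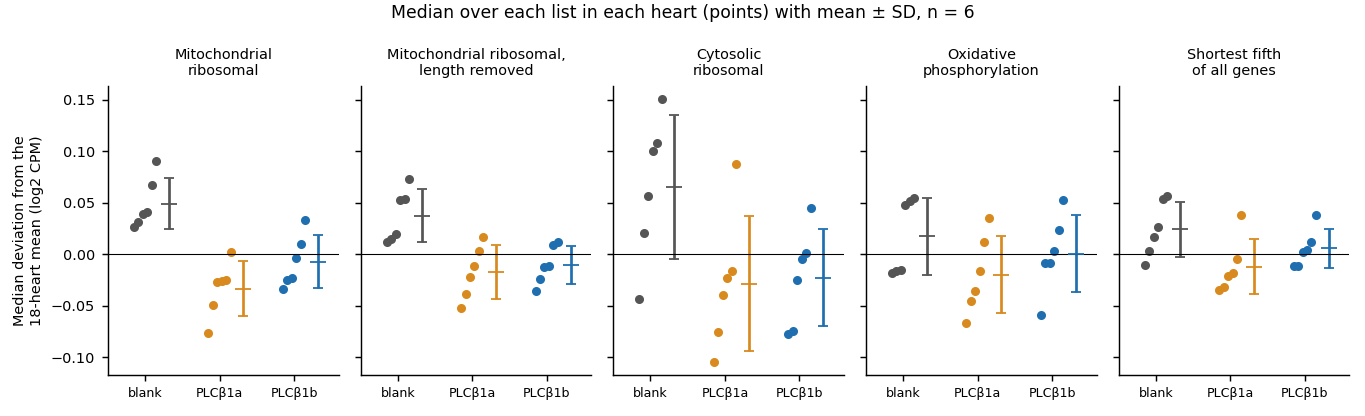
Median deviation from the 18-heart mean (log2 CPM, y axis) in each heart for 5 lists, with mean and SD (n = 6) per group. Blank hearts range from 0.0261 to 0.0904 for the mitochondrial ribosomal genes and from 0.0114 to 0.0728 once gene length is removed, and they spread from -0.0433 to 0.151 for the cytosolic ribosomal genes.

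Gene length moved with these values. The members are short, with a median exonic length of 1053 bases against 2986 for all tested genes, and 59 of 75 fell in the shortest length quintile of all genes (up to 1680 bases). Over all genes, the rank correlation of length with the deviation in a heart ran from -0.205 to 0.0250 in blank hearts, from -0.104 to 0.119 in PLCβ1a hearts and from -0.0904 to 0.0731 in PLCβ1b hearts. In the shortest quintile, the median log2 fold change of all 2455 genes was -0.0225 for PLCβ1b and -0.0384 for PLCβ1a against blank. The 59 members there had -0.0615 and -0.0953. The medians of all genes increased with each quintile, to 0.0141 and 0.0284 in the longest, while the 3 members in that quintile had -0.0644 and -0.0197.

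**Figure D5:**
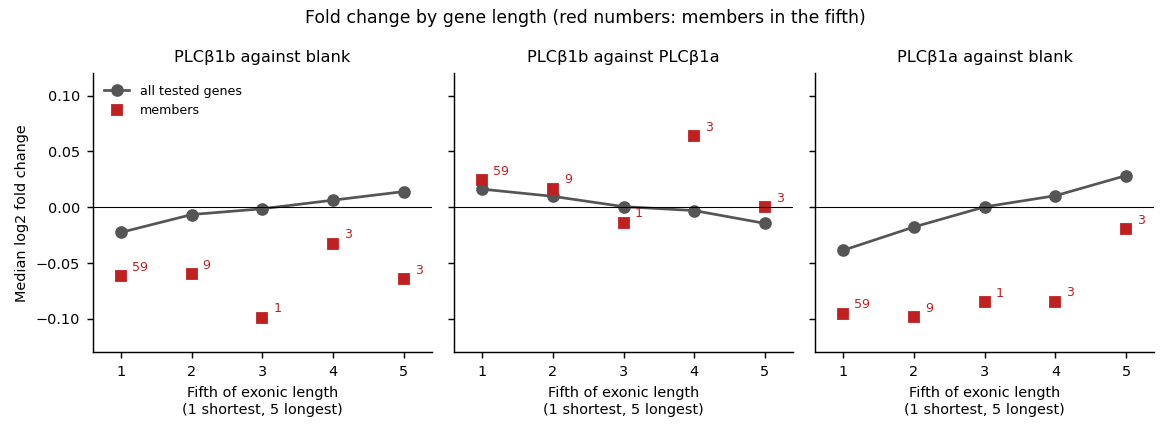
Median log2 fold change of all tested genes (grey) and of the members (red, with their number) in quintiles of exonic length, in 3 panels by comparison. Against blank, grey runs upward from -0.0225 to 0.0141 for PLCβ1b and from -0.0384 to 0.0284 for PLCβ1a, and the members' points lie below it in each quintile, the upper 3 of which hold 1 to 3 members.

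A fit that removed length in each heart gave the members a median log2 fold change of -0.0507 for PLCβ1b against blank, with 61 of 75 below 0, and again no call. For PLCβ1a against blank it gave -0.0720, with 54 of 75 below 0, or 72%, compared with 84.0% before. The median of all genes also moved in this fit, to -0.00933 for PLCβ1b and -0.01065 for PLCβ1a against blank. Mrpl18 was then at -0.19 with an edgeR FDR of 0.129 and Mrpl34 at -0.28 with an FDR of 0.140, so that neither passed the threshold. Between PLCβ1b and PLCβ1a the median was 0.00880. The per-heart medians with length removed were 0.0114 to 0.0728 in blank, -0.0523 to 0.0169 in PLCβ1a and -0.0356 to 0.0118 in PLCβ1b hearts. With length removed, 5 hearts of each PLC group were below the lowest blank heart, the blank and PLCβ1a hearts being those of the choice. GC content was close to that of other genes, at a median of 51.2% against 50.7%.

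Across the classes, the 29 tested bacterial-type large-subunit genes had medians of -0.0615 for PLCβ1b and -0.0962 for PLCβ1a against blank, and 0.0605 for PLCβ1b against PLCβ1a. The 19 mitochondria-specific large-subunit genes had -0.0724, -0.0925 and 0.0105. For the small subunit the 16 bacterial-type genes had -0.0618, -0.0727 and -0.0103, and the 10 mitochondria-specific genes -0.0480, -0.0491 and 0.0240. Between 80% and 84.2% of each class was below 0 in PLCβ1b hearts against blank. Whether classes differ was not tested. The medians that involve PLCβ1a hearts come from hearts used in the choice and support nothing further. The 4 genes without overlap between PLCβ1a and blank were all bacterial-type large-subunit genes. Mrpl18 and Mrpl34, by which the family was chosen, are among these 4, so their class supports nothing further.

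A further 7 genes encode proteins of the same ribosome under other names, among them Dap3 and Ptcd3 of the small subunit. None was called in any comparison, and their medians were -0.0255, -0.0322 and 0.0206 for PLCβ1b against blank, PLCβ1a against blank and PLCβ1b against PLCβ1a. Ptcd3, with 56.9 to 61.9 CPM in blank and 53.2 to 58.9 CPM in PLCβ1b hearts, had a log2 fold change of -0.05 (SE 0.0394, edgeR FDR 0.819). Chchd1 had -0.13 (SE 0.0638, FDR 0.593) in PLCβ1a against blank and Mrp63 had 0.14 (SE 0.0811, FDR 1.0) in PLCβ1b against PLCβ1a. The cytosolic ribosomal protein genes (71 tested) had medians of -0.0866, -0.0798 and 0.0158. The 80 tested nuclear genes for subunits of oxidative phosphorylation had -0.0214, -0.0465 and 0.0174. No gene of these 2 lists was called.

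Of the 11 tested messenger RNAs of mitochondrial DNA, 10 had estimates above 0 against blank in PLCβ1b hearts, with mt-Co2 at -0.16 the exception, and 10 in PLCβ1a hearts, with mt-Atp6 at -0.36 the exception. None was called. For 4 of the 11 (mt-Nd3, mt-Co2, mt-Co3 and mt-Atp6) the median count per heart was 13 to 24, although their mean FPKM was 17602 to 43900, and the cause was not tested. Their count-based values, the exceptions included, rest on these few counts. mt-Cytb, which encodes cytochrome b, had 9875 to 12493 CPM in blank, 10573 to 13483 in PLCβ1a and 10841 to 13703 in PLCβ1b hearts. The 3 ranges overlapped, and its log2 fold change was 0.19 (SE 0.0710, edgeR FDR 0.592) for PLCβ1b against blank. mt-Rnr2, the RNA of the ribosome's large subunit, ranged from 494560 to 623450 CPM over all hearts. Its log2 fold change of PLCβ1b against PLCβ1a was 0.10 (SE 0.0404, FDR 1.0). The libraries had been depleted of ribosomal RNA, and the part of that step in this level was not tested. mt-Atp6, with 0.357 to 1.27 CPM, had a log2 fold change of PLCβ1b against PLCβ1a of 0.64 (SE 0.225, edgeR FDR 1.0) on counts but of 0.0599 with limma on FPKM, where the means were 23489 and 22557.

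Genes that act around the ribosome gave no call in any comparison. Of 15 translation factors and related proteins, 13 had estimates below 0 against blank in each PLC group, with medians of -0.0617 for PLCβ1b and -0.0585 for PLCβ1a. Mtif2, the initiation factor, was at 21.3 to 24.6 CPM in blank and 19.4 to 23.0 CPM in PLCβ1b hearts, with a log2 fold change of -0.11 (SE 0.0550, edgeR FDR 0.686). Slirp, which stabilizes mitochondrial messenger RNAs, had -0.22 (SE 0.0727, FDR 0.330) in PLCβ1a against blank and 0.15 (SE 0.0727, FDR 1.0) in PLCβ1b against PLCβ1a.

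Of the 26 assembly factors, 15 were below 0 in PLCβ1b and 19 in PLCβ1a hearts, and the medians were -0.0289 and -0.0934. Rnmtl1, a methyltransferase for ribosomal RNA, had a log2 fold change of -0.20 (SE 0.0852, edgeR FDR 0.599) for PLCβ1b against blank. Ngrn had -0.22 (SE 0.0913, FDR 0.474) for PLCβ1a against blank, and -0.139 without the heart of PLCβ1a mouse 7. Noa1, a GTPase of assembly, had 0.28 (SE 0.109, FDR 1.0) for PLCβ1b against PLCβ1a.

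The 17 mitochondrial tRNA synthetases centred on 0, with medians of 0.00522 and -0.00238 against blank. Lars2, which charges the leucine tRNA, had the largest estimate of the list, a log2 fold change of 2.27 (SE 1.04, edgeR FDR 0.666) in PLCβ1b hearts. It rests on 1 heart, that of mouse 17, with 136 CPM where the other 5 PLCβ1b hearts had 3.70 to 7.70. Without that heart the estimate was 0.0267. Among PLCβ1a hearts that of mouse 21 had 53.0 CPM and the others 3.73 to 14.3. Ears2 had 0.24 (SE 0.109, FDR 0.535) for PLCβ1a against blank, and 0.128 with limma on log2(FPKM + 1). Vars2 had 0.14 (SE 0.0913, FDR 1.0) for PLCβ1b against PLCβ1a, and 0.0385 without the heart of PLCβ1b mouse 4.

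Regulators of mitochondrial transcription and biogenesis (11 tested) had medians of -0.0387 and -0.0345 against blank. Tfb2m, a factor that starts mitochondrial transcription, had 0.19 (SE 0.0880, edgeR FDR 0.641) for PLCβ1b against blank, a direction that turned on the FPKM scale. Tefm, the elongation factor, had -0.16 (SE 0.0936, FDR 0.653) for PLCβ1a against blank. Gabpa, the subunit of GABP that binds ETS motifs, had -0.07 (SE 0.0474, FDR 1.0) for PLCβ1b against PLCβ1a, and -0.0372 without the heart of PLCβ1b mouse 10.

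The genes that share a start region were set beside their partners. The 41 bases between Mrpl46 and Mrps11 hold none of the 5 motifs, and the 186 bases between Mrps12 and Sars2 hold 1 ETS motif and 3 of CCAAT. For PLCβ1b against blank, Mrpl46 had a log2 fold change of -0.06 (SE 0.0827) and Mrps11 of -0.17 (SE 0.104), and for PLCβ1a against blank -0.20 (SE 0.0840) and -0.13 (SE 0.104). Sars2 had -0.13 (SE 0.149) beside -0.23 for Mrps12 in PLCβ1b hearts. Tcp1 had -0.07 (SE 0.0411) beside -0.15 for Mrpl18 in PLCβ1b hearts, and -0.06 (SE 0.0412) beside -0.23 in PLCβ1a hearts. None of these partners was called. Over the 19 partners outside the family that were tested, 13 were below 0 for PLCβ1b and 12 for PLCβ1a against blank, with medians of -0.0379 and -0.0454.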

How the data were processed

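RNA of 18 mouse hearts was depleted of ribosomal RNA and sequenced as strand-specific pairs of 76 nt reads, which the authors aligned with TopHat (TopHat2 2.0.10 in the submitters' processing notes) to mm10. The authors deposited raw counts per gene from HTSeq in union mode, and FPKM, for which the notes list Cufflinks 2.1. The deposited annotation gave exon coordinates and exonic length. Gene coordinates are mm10.

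Counts were tested with edgeR 4.0.16 (R 4.3.3), TMM scaling, filterByExpr (minimum count 10, minimum total 15) and the robust quasi-likelihood F test in 1 model of the 3 groups, with Benjamini-Hochberg adjustment over 12281 genes and calls at an FDR below 0.1. CPM used TMM scaling, and log2 CPM a prior count of 2. Gene length was removed by a spline (4 degrees of freedom) on log2 exonic length in each heart, used as an offset. Alternatives were DESeq2 1.42.0, limma 3.58.1 on log2(FPKM + 0.1) and log2(FPKM + 1), upper-quartile scaling, no filter, only the 2 groups compared, mitochondrial genes left out and each heart left out. Fits were tested on simulated data. The members and lists were chosen with earlier results of these data known. Named were Mrpl18, Mrpl34, the 5 members with the lowest p in each comparison, the 5 with the highest and the 5 with the lowest FPKM, the member that failed the filter, and the gene with the lowest p in each pathway list. Others were named after their values were seen. At 3908354 to 7591558 nuclear counts per heart, the errors given cover the spread between hearts.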

Additional observations from a re-analysis of the deposited data

Results flagged for a closer look

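Of 129 groups of 6 hearts examined (the named genes and the medians and share of the members, in each vector group), 11 held a heart far from the other 5 by Dixon's ratio above 0.625. Chance flags about 1 in 20 groups. Among the members, Mrpl33 was low in the heart of PLCβ1a mouse 9 (11.02 CPM, others 11.96 to 12.5), as was Mrpl39 (13.2 CPM, others 15.8 to 17.3). Mrps25 was low in the heart of PLCβ1a mouse 14 (9.75 CPM, others 11.9 to 12.3). The members' share of nuclear counts was high in the heart of PLCβ1a mouse 21 (0.335%, others 0.315 to 0.322%), the heart in which Chchd1 (15.3 CPM, others 13.6 to 14.2) and Lars2 (53.0 CPM, others 3.73 to 14.3) were also high. Lars2 was high in the heart of PLCβ1b mouse 17 too (135.5 CPM, others 3.70 to 7.70). Slirp was low in the hearts of blank mouse 33 (10.03 CPM, others 11.9 to 12.6) and PLCβ1b mouse 6 (9.33 CPM, others 11.3 to 12.4). Tfb2m was low in the heart of PLCβ1b mouse 4 (5.61 CPM, others 7.10 to 7.99). mt-Atp6 was high in the heart of blank mouse 26 (1.27 CPM, others 0.639 to 0.809). The causes were not tested.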

How the results depend on the processing

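The 2 calls of PLCβ1a against blank depended on the setting. With length removed, with length and GC removed, and with limma on log2(FPKM + 0.1) or log2(FPKM + 1) the number of members called was 0, and with hearts left out in turn it was 0 to 2. It was 0 without the heart of blank mouse 34, PLCβ1a mouse 11 or PLCβ1a mouse 14, and 1 (Mrpl18) without blank mouse 32, blank mouse 36 or PLCβ1a mouse 21. Over these settings the FDR of Mrpl18 ran from 0.0105 to 0.436 and that of Mrpl34 from 0.0255 to 0.173. The other 2 comparisons had 0 members called in each of 28 settings, and the number of all genes called ran from 2 to 24 (12 as reported) for PLCβ1b against blank, from 3 to 33 (17 as reported) for PLCβ1a against blank and from 0 to 1 for PLCβ1b against PLCβ1a. The lowest counts were 2 without blank mouse 34 or PLCβ1b mouse 17 in the first, with 4 and 6 without PLCβ1b mouse 4 and 6, and 3 without blank mouse 34 or PLCβ1a mouse 11 in the second. Medians of the members kept their sign, between -0.0823 and -0.0470, between -0.110 and -0.0716, and between 0.00880 and 0.0307 in that order. The values -0.0823 and -0.110 came with limma on log2(FPKM + 0.1). There the median of all genes was -0.0186 for PLCβ1b and -0.0206 for PLCβ1a against blank. Tfb2m in PLCβ1b against blank turned to -0.0215 and -0.0191 with limma at 0.1 and 1, and the cause was not tested. mt-Rnr2 is listed at 0 in FPKM and has no value there. The fits with length and GC removed and with a spread that was not robust were chosen after seeing the data. No paired analysis was possible because the groups share no replicate numbers. The serial numbers in the sample titles run in blocks by vector, and blank mice carry higher mouse numbers than all PLC mice. What these numbers stand for is not stated, so anything that goes with them cannot be told apart from the vector. Depth was not varied, and p-values rest on 6 hearts a group.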
